A study of Rattus norvegicus with 18 samples.

Results

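The microRNAs described here are miR-21, miR-221, miR-222 and miR-31a, each with both arms of its precursor. They were chosen by name, because their levels are known to rise in sensory ganglia when the peripheral nerve is cut. The count table held 8 such mature miRNAs among 753 listed (miR-21-5p, miR-21-3p, miR-221-3p, miR-221-5p, miR-222-3p, miR-222-5p, miR-31a-5p and miR-31a-3p). The injury used here did not cut the peripheral axons of the ganglia, and the data give the levels of these miRNAs after an injury of the brain's descending tracts.

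Dorsal root ganglia (DRG) hold the cell bodies of sensory neurons, and those of 18 adult lister hooded rats gave the small RNA that was sequenced. The naive group was unoperated and received no vector. In both other groups each rat had bilateral pyramidotomy (bPYX), a cut through both corticospinal tracts in the medullary pyramids, and on the next day received an AAV1 vector in the forelimb flexor muscles of 1 side. The vector used a CMV promoter, which is active in many cell types, and encoded green fluorescent protein (bPYX+GFP) or human prepro-neurotrophin-3 (bPYX+NT3). At 10 weeks after injury the ganglia of cervical levels 6 to 8 were taken from the injected side, and each pool came from 1 rat only. Each group held 6 rats with 1 library each. Surgery, vector and injury came together in both bPYX groups and cannot be told apart in comparisons with naive rats. The paper reports that the injected rats also had behavioural tests, neurophysiology and tracing of nerves. Whether each sequenced rat, or the naive rats, had these is not stated, and their part in the levels was not tested.

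Libraries held from 3.88 to 6.92 M miRNA counts (4.70 ± 0.663 M, mean ± SD, n = 18, with M standing for mega), and bPYX+GFP replicate 3 was the largest. Counts per M miRNA counts after TMM scaling (CPM) are used below unless stated. The detection filter asked for over 10 counts in 6 or more libraries, and the 373 miRNAs that met it were tested. Of 19 cell type markers fixed as a check of the tissue, 13 passed this filter. The sensory neuron markers miR-96-5p and miR-182 summed to between 23643 and 33104 CPM in every library, whereas miR-183-5p was listed at 0 throughout and miR-124-3p reached at most 7 counts. Of the glial markers, miR-204-5p ranged from 5316 to 11924 CPM and miR-338-3p was at 0. Naive replicate 1, which the study set aside as an outlier, was kept. In bulk ganglia, fewer cells of a type and less RNA per cell cannot be told apart.

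A miRNA precursor is a hairpin whose 5′ and 3′ strands can each give a mature miRNA. Usually the more abundant one, the guide, is loaded into the silencing complex, where its seed near the 5′ end pairs with target messenger RNAs, and the other, the passenger, is largely lost. miR-21-5p rises in DRG neurons after axotomy and promotes neurite outgrowth, with Sprouty2, an inhibitor of growth factor signalling, among its targets. miR-221 and miR-222 come from neighbouring genes on the X chromosome and act on the cell cycle inhibitor p27. miR-31 has also been linked to axon growth.

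All 8 members matched an entry of RefSeq (assembly GRCr8, not the build of the counts, Rnor_5.0), and their mature sequences are shown because the seeds group them and the arms are compared below. They are written 5′ to 3′ with the seed, bases 2 to 8, in capitals. The arms of Mir21, on chromosome 10, the minus strand, were as follows.
rno-miR-21-5p: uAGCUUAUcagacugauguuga
rno-miR-21-3p: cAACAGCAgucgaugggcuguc
The arms of Mir221 and Mir222, neighbours on the plus strand of chromosome X with 0 annotated genes between them, were as follows.
rno-miR-221-3p: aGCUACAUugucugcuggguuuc
rno-miR-222-3p: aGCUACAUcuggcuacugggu
rno-miR-221-5p: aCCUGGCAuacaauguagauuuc
rno-miR-222-5p: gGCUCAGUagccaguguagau
The arms of Mir31, on the minus strand of chromosome 5, and miR-31b, which the annotation places on the opposite strand, were as follows.
rno-miR-31a-5p: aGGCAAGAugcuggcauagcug
rno-miR-31a-3p: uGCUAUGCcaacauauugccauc
rno-miR-31b: cUAUGCCAgcaucuugccu

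The guides miR-221-3p and miR-222-3p shared the seed GCUACAU. No other listed miRNA with a sequence in RefSeq had the seed of any member, where 688 of the 753 could be matched. Both arms of Mir221 are marked in capitals in its hairpin, shown because the balance of these arms is the measure that separated bPYX+GFP from naive rats.
Mir221: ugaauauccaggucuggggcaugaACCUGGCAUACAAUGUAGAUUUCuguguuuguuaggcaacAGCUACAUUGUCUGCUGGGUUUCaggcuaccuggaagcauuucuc

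Of the 8 members, 4 passed the filter, namely miR-21-5p, miR-221-3p, miR-222-3p and miR-221-5p. miR-21-5p was by far the most abundant, at 20459 ± 5035 CPM (SD, n = 18), 14th of the 373 tested. It took 2.05 ± 0.558% of all miRNA counts, from 1.41 to 3.58%, of the 2.14 ± 0.568% taken by the 8 members together. miR-221-3p was 487 ± 75.4 CPM (92nd), miR-222-3p 354 ± 34.2 CPM (107th) and miR-221-5p 57.4 ± 7.81 CPM (197th). These miRNAs are 21 to 23 bases long, and the order was the same per base of length, at 930.0, 21.2, 16.9 and 2.49 CPM per base. In each of the 18 libraries miR-21-5p exceeded miR-221-3p, which exceeded miR-222-3p, which exceeded miR-221-5p. Across libraries the ranges of miR-221-3p and miR-222-3p met, from 396 to 674 and from 299.8 to 406 CPM. How efficiently each sequence was ligated into a library was not measured.

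In naive rats miR-21-5p ranged from 14659 to 30838 CPM with a median of 21918 (21601 ± 5492, mean ± SD, n = 6). Its range in bPYX+GFP was 13848 to 26032 CPM with a median of 18760 (18824 ± 4105), and in bPYX+NT3 it was 15554 to 31542 CPM with a median of 19070 (20951 ± 5839). All 3 ranges overlapped widely. The highest naive rat was replicate 2 and the highest bPYX+NT3 rat was replicate 3, both above every bPYX+GFP rat. Each value rested on 63784 to 148784 counts, so counting error was small against these differences between rats. Within groups its log2 CPM had an SD of 0.35. This exceeded the SD of all 38 miRNAs compared with it as neighbours in level, whose median was 0.17, and of 282 of the 373 tested.

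miR-221-3p ranged from 396 to 586 CPM in naive rats (median 421, mean 443 ± 71.5), from 462 to 552 CPM in bPYX+GFP rats (median 495, mean 499 ± 36.1) and from 409 to 674 CPM in bPYX+NT3 rats (median 507, mean 519 ± 96.2). In naive rats 5 of 6 values lay at or below 433 CPM, and all 6 bPYX+GFP values lay above that. The naive exception was replicate 2. Among bPYX+NT3 rats, replicate 4 had the lowest value and replicate 3 the highest of all 18.

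miR-222-3p, with the same seed, ranged from 299.8 to 404 CPM in naive rats (median 309, mean 328 ± 39.5). In bPYX+GFP rats it was 344 to 402 CPM (median 368, mean 369.9 ± 21.01), and in bPYX+NT3 rats 329 to 406 CPM (median 369, mean 365 ± 26.3). Naive replicate 2 lay above every bPYX+GFP rat, as it did for miR-221-3p. The other naive rats were at or below 336 CPM, which is below every bPYX+GFP rat but inside the bPYX+NT3 range. The SD of its log2 CPM within groups was 0.12, and 3 of its 50 neighbours in level had a smaller one, against an SD of 0.20 for miR-221-3p.

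miR-221-5p, from the other arm of the miR-221 precursor, ran the other way between naive and bPYX+GFP rats. It ranged from 54.4 to 76.2 CPM in naive rats (median 59.5, mean 63.5 ± 9.21), from 48.5 to 59.3 CPM in bPYX+GFP rats (median 50.6, mean 52.1 ± 3.87) and from 50.8 to 65.1 CPM in bPYX+NT3 rats (median 55.8, mean 56.6 ± 5.34). Of the bPYX+GFP rats, 5 of 6 lay below the lowest naive rat, and replicate 4 lay inside the naive range. These values rested on 217 to 338 counts per library. The plot of members by rat shows each of these values.

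**Figure D1:**
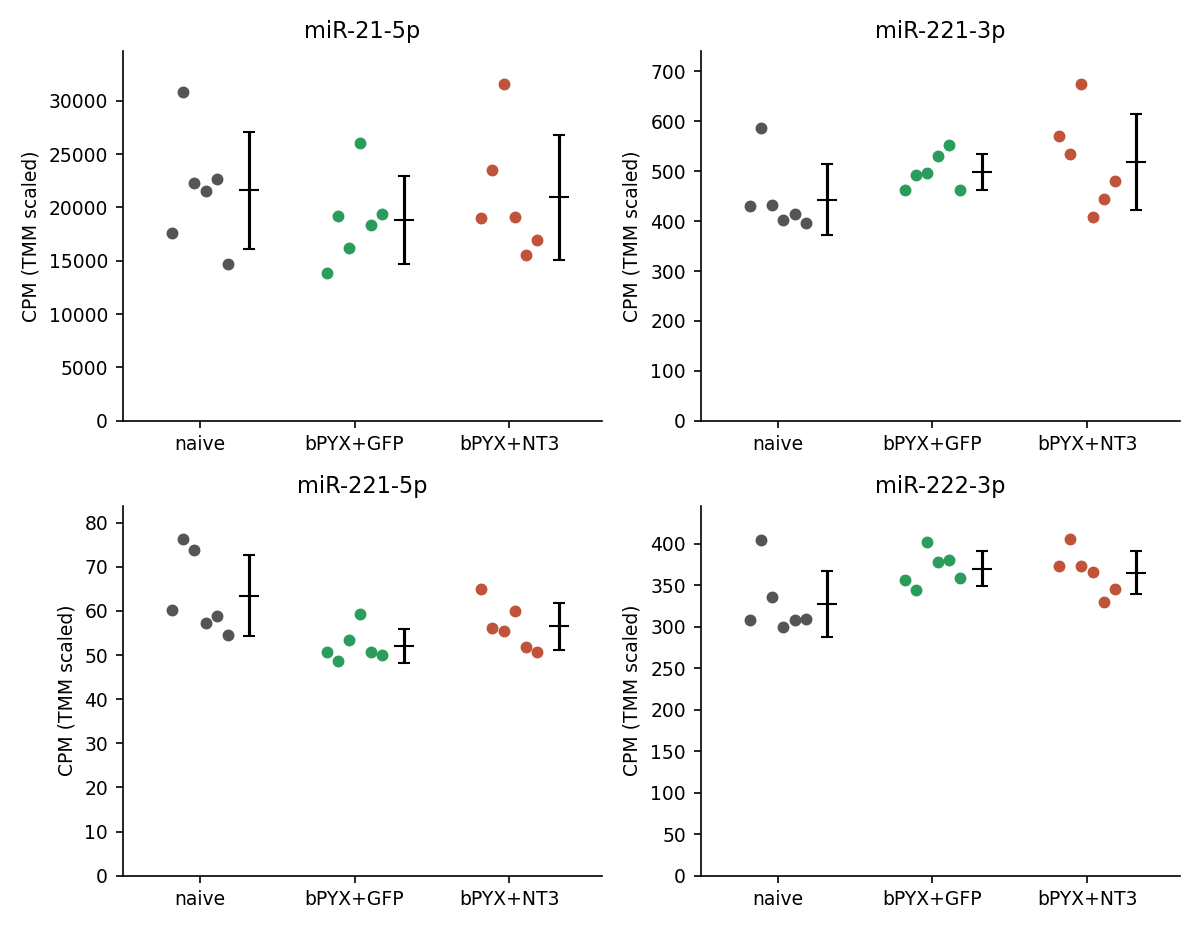
CPM after TMM scaling (y axis, linear scale) of the 4 members that passed the filter, by group, with 1 point per rat and the mean ± SD of 6 rats. The groups overlap for every member, and naive replicate 2 is the highest naive rat in each panel.

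Whether these miRNAs differed in cervical ganglia after corticospinal tract injury with a control vector was asked by setting bPYX+GFP rats against naive ones. None of the 4 tested members had a Benjamini-Hochberg adjusted p under 0.05 in edgeR's quasi-likelihood test over 373 miRNAs, where 9 miRNAs (2.41%) did. At an unadjusted p under 0.05 there were 2 of 4 members, against 21.2% of all tested miRNAs. Of these 2, 1 was higher (10.7% of all tested) and 1 lower (10.5%). The likelihood ratio test also gave 0 members adjusted and 1 unadjusted, against 12 and 61 of all tested miRNAs. DESeq2 gave 0 and 2 members, against 22 and 73 of all tested. The groups did not overlap for 0 of 4 members, against 4.02% of all tested. With 4 members, these counts describe the members and are no test of the list.

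miR-21-5p had a log2 fold change of -0.20 ± 0.16 (SE; 95% interval -0.55 to 0.15; edgeR adjusted p = 0.534) and lay below the naive mean in 5 of 6 bPYX+GFP rats. The interval allows from 0.684 to 1.11 times the naive level, so a rise of 1.5 times or more lies outside it. The estimate rested on single rats, at -0.07 without naive replicate 2, and at -0.12 or -0.31 when bPYX+GFP replicate 1 or 4 was omitted, each with an adjusted p over 0.05. For miR-221-3p the log2 fold change was 0.17 ± 0.09 (-0.03 to 0.37; edgeR adjusted p = 0.314), and for miR-222-3p it was 0.18 ± 0.08 (0.00 to 0.35; edgeR adjusted p = 0.232; unadjusted p under 0.05). Both were above the naive mean in 6 of 6 rats, and by their intervals their levels were at most 1.29 and 1.27 times the naive level. miR-221-5p had a log2 fold change of -0.28 ± 0.10 (-0.50 to -0.07; edgeR adjusted p = 0.134; unadjusted p under 0.05) and was below the naive mean in 6 of 6 rats.

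The calls on the guides depended on naive replicate 2. Without it miR-221-3p was 0.27 higher on the log2 scale in bPYX+GFP (edgeR adjusted p = 0.0405, range over all alternatives 0.0405 to 0.509) and miR-222-3p was 0.24 higher (edgeR adjusted p = 0.0466, range 0.0466 to 0.378). In that fit 20 of all tested miRNAs had an adjusted p under 0.05, against 9 with every library kept. No other library left out gave a member an adjusted p under 0.05. The unadjusted p of miR-222-3p was under 0.05 in 9 of 21 alternatives, whereas that of miR-221-5p was under 0.05 in all 21, with an adjusted p from 0.0933 to 0.274.

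Among injured rats, those given NT3 were set against those given GFP, to ask whether neurotrophin-3 changed these levels. By edgeR 0 of 4 members passed at an adjusted p, as for 0% of the 373 miRNAs, and 0 of 4 passed at an unadjusted p, against 8.58% of all tested. DESeq2 also gave 0 of 4 at either threshold (0 and 33 of all tested miRNAs), and groups did not overlap for 0 of 4 members (0% of all tested). The log2 fold change of miR-21-5p was 0.17 ± 0.18 (95% interval -0.20 to 0.55; edgeR adjusted p = 0.792), and without bPYX+NT3 replicate 3 it was -0.02. For miR-221-3p the value was 0.07 ± 0.12 (-0.18 to 0.31; edgeR adjusted p = 0.878), or -0.06 without the same rat. miR-222-3p had the narrowest interval, -0.01 ± 0.07 (-0.16 to 0.15; edgeR adjusted p = 0.984), and miR-221-5p was 0.13 ± 0.08 (-0.05 to 0.31; edgeR adjusted p = 0.668).

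Levels in bPYX+NT3 rats were also set against naive rats, sharing those naive libraries with the first comparison. Again 0 of 4 members passed at an adjusted p by edgeR (0% of the 373 miRNAs). At an unadjusted p there were 0 of 4, against 13.7% of all tested. DESeq2 gave 0 of 4 at both, against 1 and 56 of all tested miRNAs. With library size only, 1 of 4 members, miR-222-3p, had an unadjusted edgeR p under 0.05 (adjusted p = 0.296), as did 54 of all tested. A filter of more than 100 counts gave the same member (edgeR adjusted p = 0.261), with 47 of those tested. Groups did not overlap for 0 of 4 members, against 1.34% of all tested. miR-21-5p had a log2 fold change of -0.04 ± 0.18 (95% interval -0.43 to 0.34; edgeR adjusted p = 0.945), whose interval spans 0.742 to 1.27 times the naive level. The value of miR-221-3p was 0.23 ± 0.13 (-0.04 to 0.50; edgeR adjusted p = 0.394), above the naive mean in 5 of 6 rats. For miR-222-3p it was 0.16 ± 0.09 (-0.03 to 0.34; edgeR adjusted p = 0.394), above the naive mean in 6 of 6, and for miR-221-5p it was -0.17 ± 0.11 (-0.40 to 0.07; edgeR adjusted p = 0.473). Without naive replicate 2, where 46 of the 373 miRNAs had an unadjusted p under 0.05, so did 2 of 4 members, namely miR-221-3p at 0.32 and miR-222-3p at 0.23 (both edgeR adjusted p = 0.244), while miR-21-5p was at 0.08 and miR-221-5p at -0.11. Without bPYX+NT3 replicate 3 the value of miR-221-3p was 0.14 and that of miR-21-5p -0.20. Without bPYX+NT3 replicate 4 miR-221-3p, at 0.32, again had an unadjusted p under 0.05 (edgeR adjusted p = 0.215), as did 68 of all tested miRNAs. In that fit 4 miRNAs, 0 of them members, had an adjusted p under 0.05.

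**Figure D2:**
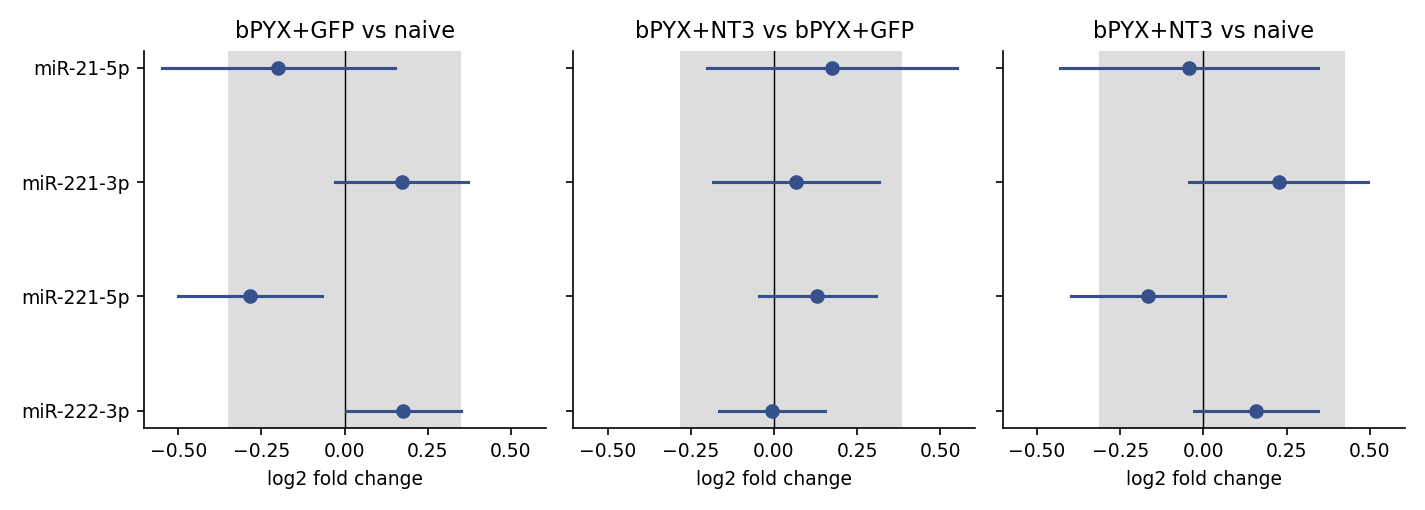
Log2 fold change (x axis) of the 4 tested members in the 3 comparisons, with points for the edgeR estimates, lines for 95% intervals and a grey band from the 5th to the 95th percentile of all 373 tested miRNAs. The estimates lie inside the band, and in the comparison of bPYX+GFP with naive the arms of miR-221 lie on opposite sides of 0.

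Because the arms of miR-221 come from 1 precursor, their ratio within a library needs no scaling between libraries. The number of miR-221-3p reads per miR-221-5p read ranged from 5.86 to 7.69 in naive rats (7.00 ± 0.610, mean ± SD, n = 6). In bPYX+GFP rats it ranged from 8.95 to 10.9 (9.62 ± 0.752), and in bPYX+NT3 rats from 6.81 to 12.1 (9.21 ± 1.74). All 6 bPYX+GFP rats lay above all 6 naive rats. In bPYX+NT3 5 of 6 rats lay above the naive range and replicate 4 lay inside it, while replicate 3 had the highest ratio of all 18.

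The log2 ratio was 0.46 higher in bPYX+GFP than in naive rats (two-sided exact permutation p = 0.00216, the smallest that the splits of 12 rats allow; Benjamini-Hochberg adjusted p = 0.0411 over 114 precursors with both arms tested). At an adjusted p under 0.05 there were 6 of 114 precursors (5.26%), and at an unadjusted p 21.9%. The size placed miR-221 17th of 114. All 6 called precursors had groups that did not overlap: miR-145, miR-30a and miR-30e, like miR-221, had a higher 3p share in bPYX+GFP, and miR-361 and miR-3559 a lower one. They share the smallest possible p. When 1 rat was omitted, 7 of the 12 tests gave miR-221 an adjusted p over 0.05 (at most 0.0823), each with a difference from 0.41 to 0.49. In all 12 tests its exact permutation p was no larger than the 0.00216 found with every rat kept. The higher adjusted p values thus came from the p values of the other precursors, since fewer of them were as small. With limma, added after seeing the data, the difference was 0.46 ± 0.10 (SE; 95% interval 0.25 to 0.67; adjusted p = 0.0139), against a median of 0.05 over the 114 precursors.

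In bPYX+NT3 the log2 ratio was 0.38 above naive (exact permutation p = 0.0130, adjusted p = 0.200, where 0% of precursors passed and 21.1% had an unadjusted p under 0.05). limma gave a 95% interval of 0.09 to 0.67 for it. Against bPYX+GFP the difference was -0.08 (exact permutation p = 0.537, adjusted p = 0.865, with 0% of precursors called and 12.3% at an unadjusted p), with a limma interval of -0.37 to 0.21.

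The ratio moved with a property of the whole library. Over the 18 libraries, with group means removed, the log2 ratio and the log2 TMM factor, which reflects the composition of a library, had a Pearson correlation of 0.82, or 0.64 over 16 without bPYX+NT3 replicates 3 and 4. TMM factors ran from 0.931 to 1.02 (naive), 0.911 to 1.13 (bPYX+GFP) and 0.909 to 1.14 (bPYX+NT3). With the log2 TMM factor as a covariate in limma, also added after seeing the data, the difference between bPYX+GFP and naive was 0.44 ± 0.09 (95% interval 0.25 to 0.62; adjusted p = 0.0133). The difference between bPYX+NT3 and naive was 0.22 in that fit (0.01 to 0.43; adjusted p = 0.314), and that between bPYX+NT3 and bPYX+GFP was -0.15 (-0.37 to 0.07; adjusted p = 0.675).

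Stated as shares, miR-221-5p made up 12.5% of the reads of both arms summed over naive rats, 9.44% over bPYX+GFP rats and 9.77% over bPYX+NT3 rats. The naive rat with the lowest share had 11.5% (95% Wilson interval 10.4 to 12.8%), and the bPYX+GFP rat with the highest share had 10.1% (8.96 to 11.3%). Counting error alone thus left these 2 neighbouring rats unseparated, and the difference rests on all 12 rats. Such intervals cover counting error only, since PCR copies are not separate molecules.

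**Figure D3:**
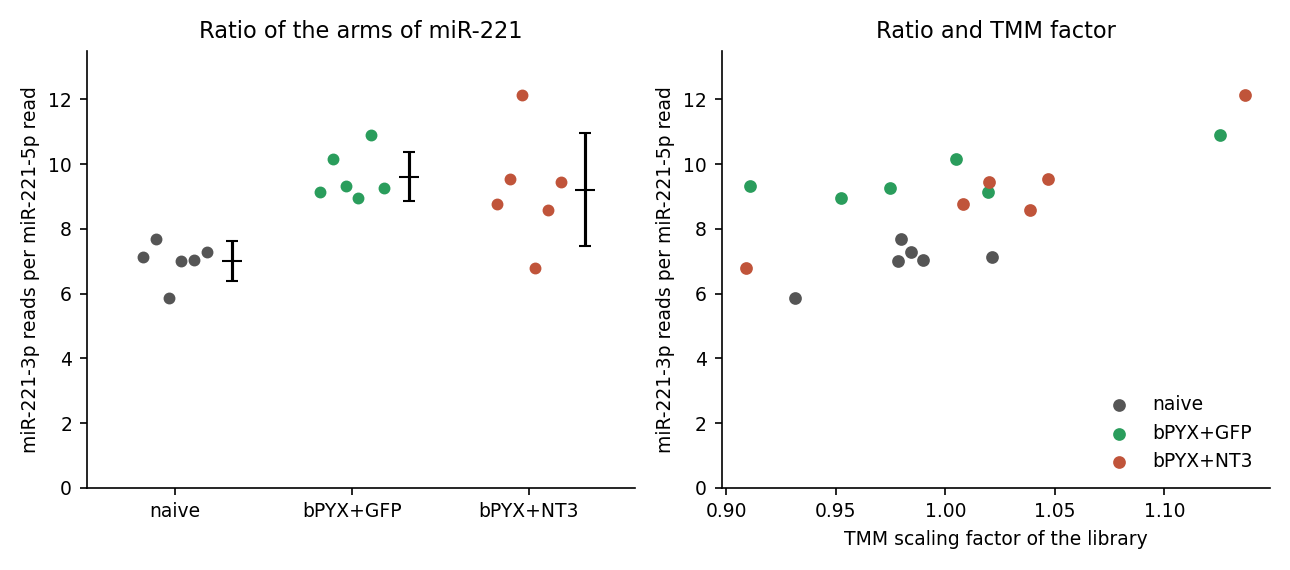
Reads of miR-221-3p per read of miR-221-5p, by group with the mean ± SD of 6 rats (left) and against the TMM factor of the library (right), with 1 point per rat. Every bPYX+GFP rat lies above 8.9 and every naive rat below 7.7, and bPYX+NT3 replicates 3 and 4 have the highest and lowest ratios of their group.

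miR-221-3p and miR-222-3p, whose genes are neighbours, had similar proportions in the 3 groups. Per read of miR-222-3p, naive rats had 1.35 ± 0.0649 reads of miR-221-3p, bPYX+GFP rats 1.35 ± 0.0873 and bPYX+NT3 rats 1.42 ± 0.232 (mean ± SD, n = 6). The widest departures were bPYX+NT3 replicate 3, at 1.81, and replicate 4, at 1.12. Reads of miR-21-5p per read of miR-221-3p were 48.4 ± 7.47 for naive, 37.6 ± 7.11 for bPYX+GFP and 40.2 ± 6.31 for bPYX+NT3 rats, with overlap between all groups.

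Correlations of log2 CPM over the 18 libraries, with group means removed, describe how members varied between rats of a group. The points share the depth and composition of their libraries. Pearson's r was 0.73 between miR-221-5p and miR-222-3p, 0.72 between miR-21-5p and miR-221-3p and 0.68 between miR-221-3p and miR-222-3p. It was 0.49 between the arms of miR-221, 0.53 between miR-21-5p and miR-221-5p and 0.56 between miR-21-5p and miR-222-3p. Within single groups of 6 rats the values were unequal. Over these 6 pairs of members r ranged from 0.75 to 0.96 in naive rats, which include the high replicate 2, from 0.06 to 0.60 in bPYX+GFP rats and from 0.18 to 0.79 in bPYX+NT3 rats. Between the arms of miR-221 it was 0.80, 0.44 and 0.19 in that order. The median over all other tested miRNAs was between -0.04 and 0.05 for each member.

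Among the 372 other tested miRNAs, miR-221-5p was the most like miR-222-3p, and miR-222-3p was 3rd in the list of miR-221-5p and 8th in that of miR-221-3p. For miR-21-5p the most alike were miR-219a-1-3p (r = 0.83), miR-146b-5p (0.79) and miR-20a-5p (0.78). For miR-221-3p they were miR-20a-5p (0.82), miR-190b-5p (0.76) and miR-362-5p (0.73). The list of miR-221-5p opened with miR-146b-5p (0.79) and miR-212-5p (0.78), and after miR-221-5p (0.73) that of miR-222-3p went on with miR-20a-5p (0.72) and miR-219a-1-3p (0.69).

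**Figure D4:**
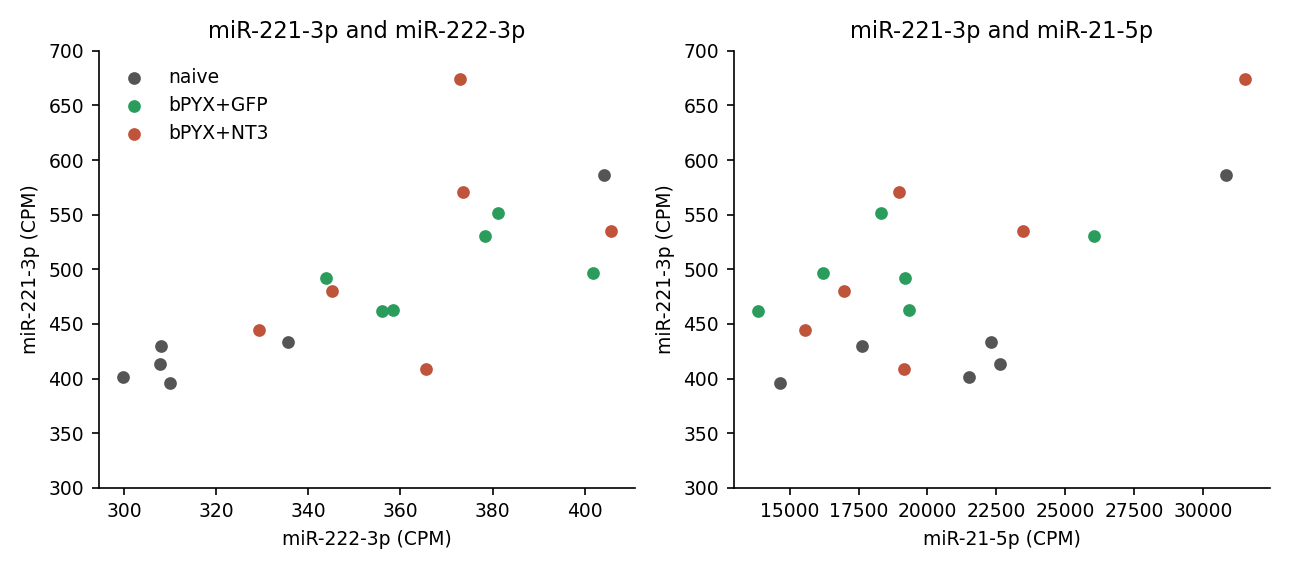
CPM of pairs of members, with 1 point per rat, coloured by group. The left panel sets miR-221-3p against miR-222-3p and the right panel sets it against miR-21-5p; bPYX+NT3 replicate 3 (674 CPM of miR-221-3p) and naive replicate 2 (586 CPM) are the highest in miR-221-3p and in miR-21-5p.

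The other 4 members did not pass the filter, were not tested, and are given as counts. The passenger miR-21-3p had 0 to 7 counts per library, in total 18, 18 and 16 in the naive, bPYX+GFP and bPYX+NT3 groups. Its 52 counts were 0.00304% of the 1709713 reads of both miR-21 arms (95% Wilson interval 0.00232 to 0.00399%). miR-222-5p had 2 to 11 counts per library, in total 41, 45 and 24, and made up 0.367% of the 29962 reads of both miR-222 arms (0.305 to 0.442%). The share of the 5p arm was thus 10.5% for miR-221 and 0.367% for miR-222, although the genes are neighbours.

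miR-31a-3p had 1 to 8 counts per library. In replicates 1 to 6 these were 1, 2, 4, 7, 2 and 4 for naive, 1, 2, 4, 1, 1 and 7 for bPYX+GFP and 5, 5, 4, 8, 3 and 8 for bPYX+NT3 rats. The totals were 20, 16 and 33, and the ranges overlapped. The bPYX+NT3 total was the highest, and no difference between groups was tested.

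miR-31a-5p, which is usually the guide of its precursor, was listed at 0 in all 18 libraries. miR-31b, listed at 0 in all 18 libraries too, lies on the opposite strand of the same place, and its 19 bases pair without a gap to miR-31a-5p. In RefSeq 47 pairs of listed miRNAs overlap on opposite strands, 46 of them over at least 15 bases. Of these 94 miRNAs, 82 (87.2%) were at 0 in every library, against 81 of the 594 others that matched (13.6%). In 35 of the 47 pairs both were at 0. The markers miR-183-5p, miR-338-3p, miR-126a-5p, miR-1-3p and miR-133a-3p, also at 0, belong to such pairs too.

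The zeros of miR-31a-5p are therefore shown as listed, and no level is read from them. Reads counted as ambiguous, which fitted more than 1 feature, were 324161 to 661241 per library (2.61 to 3.72% of all reads). The strand setting of the counting is not given in the sources used here, and whether reads of miR-31a-5p are among the ambiguous ones was not tested.

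**Figure D5:**
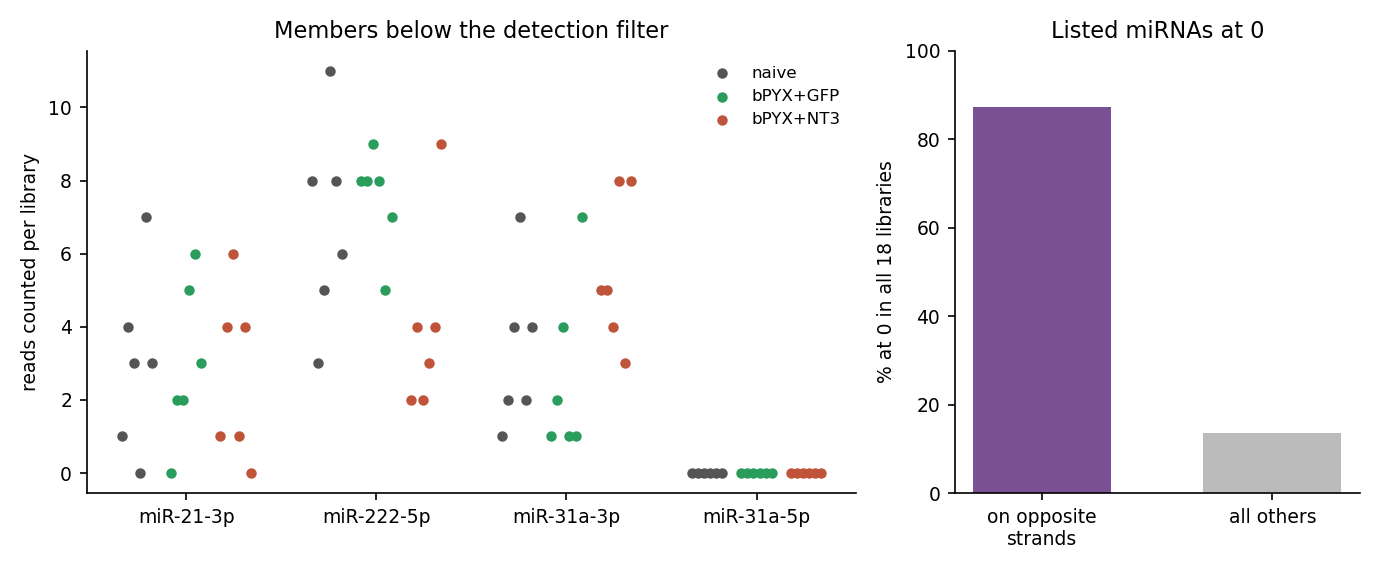
Raw counts per library of the 4 members that did not pass the filter (left), with 1 point per rat by group, and the percentage of miRNAs at 0 in all 18 libraries among those that overlap a listed miRNA on the opposite strand and among the others (right). miR-31a-5p is at 0 in every rat, and 87.2% against 13.6% of miRNAs were at 0.

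Other miRNAs known to move after nerve injury were taken as fixed lists. Of 5 known to rise (miR-132-3p, miR-142-3p, miR-142-5p, miR-155-5p and miR-223-3p, of which miR-132-3p is induced by neuronal activity and the rest are mainly made by leukocytes), 5 were tested and 0 had an adjusted or unadjusted edgeR p under 0.05 in any of the 3 comparisons, where 21.2%, 8.58% and 13.7% of all tested had an unadjusted one. Their median log2 fold changes were 0.03, 0.13 and 0.13 in bPYX+GFP against naive, bPYX+NT3 against bPYX+GFP and bPYX+NT3 against naive, while the medians over all tested were 0.0036, -0.00042 and -0.01. The member of smallest p in each was miR-132-3p, with log2 fold changes of -0.08 ± 0.10, 0.24 ± 0.12 and 0.15 ± 0.12 (edgeR adjusted p = 0.717, 0.587 and 0.616).

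Of 5 miRNAs known to fall after nerve injury (miR-145-5p, miR-143-3p, miR-96-5p, miR-182 and miR-183-5p), 4 were tested and 0 had an adjusted p under 0.05. In bPYX+GFP against naive, 1 was higher and 1 lower at an unadjusted edgeR p under 0.05, against 10.7% and 10.5% of all tested. miR-145-5p, a marker of smooth muscle, had a log2 fold change of -0.50 ± 0.14 there (edgeR adjusted p = 0.0742), and miR-182, a marker of sensory neurons, had 0.20 ± 0.08 (edgeR adjusted p = 0.173). The other smooth muscle marker, miR-143-3p, was at 0.0096, and miR-96-5p at 0.07, so that 3 of the 4 values were positive. In bPYX+NT3 against bPYX+GFP miR-145-5p was the 1 with an unadjusted p under 0.05, at 0.40 ± 0.16 (edgeR adjusted p = 0.442; 8.58% of all tested). In bPYX+NT3 against naive it was miR-182, at 0.19 ± 0.09 (edgeR adjusted p = 0.349; 13.7% of all tested). The median log2 fold changes of the list were 0.04, 0.0016 and -0.02.

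Markers of other cell types were read beside the members, since miR-21 and miR-221 are also made by blood, immune and vessel cells. The summed leukocyte markers, 4 of 4 tested, ranged from 798 to 2305 CPM for naive, 1162 to 2438 CPM for bPYX+GFP and 930.3 to 1572 CPM for bPYX+NT3 rats. Over the 18 libraries, again with group means removed, the correlation of the leukocyte sum with miR-21-5p was 0.42, with 0.43 for smooth muscle, 0.41 for erythrocytes, 0.11 for endothelium, 0.04 for skeletal muscle, 0.0084 for glia and -0.19 for sensory neurons. With miR-221-3p the marker sums had correlations from -0.33 (glia) to 0.43 (skeletal muscle), with miR-221-5p from 0.08 (skeletal muscle) to 0.51 (glia) and with miR-222-3p from 0.02 (leukocytes) to 0.31 (sensory neurons). The sum of the list known to rise had 0.64 with miR-21-5p, 0.48 with miR-221-3p, 0.10 with miR-221-5p and 0.09 with miR-222-3p. The endothelial marker miR-126a-3p, with miR-126a-5p at 0, ranged from 19523 to 29104 CPM, and the smooth muscle markers, 2 of 2, from 41029 to 68821 CPM. The erythrocyte markers, 2 of 2, ranged from 121 to 1067 CPM. Of the skeletal muscle markers miR-1-3p and miR-133a-3p were listed at 0, from which no level is read, and miR-206-3p ranged from 41.5 to 297 CPM. None of the 13 tested markers had an edgeR adjusted p under 0.05, and at an unadjusted p there were 2, 1 and 1 in the 3 comparisons in the order above, against 21.2%, 8.58% and 13.7% of all tested. Their part in the levels of the members was not tested.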

How the data were processed

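Small RNA libraries were made by the authors from pooled ganglia of each rat, trimmed of adapters, aligned with Bowtie2 to Rnor_5.0 and counted with HTSeq, with base calls by bcl2fastq 1.8.4 per the submitters' processing notes. Other versions and the strand setting are not given in the sources used here, and no molecular identifiers are stated. The deposited table gives unnormalized counts of reads for each mature miRNA. The 5 rows of reads given to no miRNA, which took up reads of low alignment quality (28.0 to 35.1%) and ambiguous reads (2.61 to 3.72%) among others, entered neither library sizes nor tests. Low alignment quality can mark reads that fit several places, so miRNAs with near-identical copies are uncertain. Whether these reads did so was not tested.

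Samples were grouped by their labels, with 6 separate rats per group. No library was a copy of another of its group (smallest chi-square divided by its degrees of freedom, 37.3). Each comparison was fitted on its 12 libraries with edgeR 4.0.16 in R 4.3.3 (TMM scaling, quasi-likelihood F test), with Benjamini-Hochberg adjustment over 373 miRNAs with over 10 counts in 6 or more libraries. Arm ratios were compared as log2 of the counts plus 0.5 per arm by exact two-sided permutation in SciPy 1.17.1 (Python 3.11.15), with adjustment over 114 precursors. The tests were checked on simulated data, but the outcome is not given here and no result rests on it. Likeness is Pearson's r over 18 libraries after removing group means, and neighbours in level are up to 25 tested miRNAs on each side. The members, lists and tests were chosen with earlier results of these data known. Named miRNAs are the 8 members, the 3 most like each tested member, those that share a seed and, of each nerve injury list, the 1 of smallest p per comparison where none passed. Others, such as the precursors called beside miR-221, were named after their values were seen.

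As alternatives, scaling by median of ratios or by library size only, no filter or one of over 100 counts, edgeR's likelihood ratio test, DESeq2 1.42.0, a robust prior, 1 fit of the 3 groups, a replicate block, a pseudocount of 5 per arm, and leaving out each library in turn were tried. limma 3.58.1, with and without the log2 TMM factor, was added after seeing the data. Sequences and neighbouring genes came from RefSeq, assembly GRCr8, and none of its coordinates are given.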

Additional observations from a re-analysis of the deposited data

Results flagged for a closer look

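In 18 groups of 6 rats, over 6 measures of the members, an extreme rat was set apart from the rest in 3. Chance gives about 1 such group in 20, or 0.9 here. Naive replicate 2 had 586 CPM of miR-221-3p, where the next naive rat had 433 CPM. The same rat had 404 CPM of miR-222-3p, where the next had 336 CPM. Naive replicate 3 had 5.86 reads of miR-221-3p per read of miR-221-5p, below the next naive rat at 7.02. No cause of these values was tested.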

How the results depend on the processing

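Of 252 alternative values of the 12 member fold changes, 237 kept their direction and side of the threshold, 2 passed an adjusted p under 0.05 (miR-221-3p and miR-222-3p in bPYX+GFP against naive without naive replicate 2) and 13 reversed. The cause of changed values was not tested unless given. In bPYX+NT3 against bPYX+GFP, leaving out single libraries gave log2 fold changes from -0.0176 to 0.27 for miR-21-5p, from -0.0572 to 0.12 for miR-221-3p and from -0.0539 to 0.0209 for miR-222-3p, which was also 0.0249 with library size only and 0.0159 with a filter of more than 100 counts. In bPYX+NT3 against naive, miR-21-5p was 0.0402 with library size only and from -0.20 to 0.0849 with single libraries left out. The difference in the log2 arm ratio of miR-221 ranged from 0.41 to 0.49 for bPYX+GFP against naive and from -0.16 to 0.00366 for bPYX+NT3 against bPYX+GFP when single libraries were left out. For bPYX+NT3 against naive it ranged from 0.30 to 0.46. The highest value was without bPYX+NT3 replicate 4 (exact permutation p = 0.00216, adjusted p = 0.0823). The 9 miRNAs with an adjusted p under 0.05 in bPYX+GFP against naive were 22 with DESeq2 and from 3 to 20 with single libraries left out. In bPYX+NT3 against naive the 0 miRNAs with an adjusted p under 0.05 were 1 with DESeq2, 1 with the likelihood ratio test and 1 in the fit of all 3 groups, and from 0 to 4 with single libraries left out. The 51 with an unadjusted p under 0.05 were 75 without a filter and from 32 to 68 with single libraries left out. The 32 in bPYX+NT3 against bPYX+GFP were 54 without a filter, which tests more miRNAs, and from 24 to 54 with single libraries left out. Same-numbered rats did not deviate together (correlations from -0.20 to 0.28, from -0.16 to 0.18 and from -0.35 to 0.33 in the 3 comparisons, and 2, 2 and 0 of 6 best with their own number), so the numbers were not taken as pairs. With the replicate block the adjusted counts were 7, 0 and 0 and the unadjusted counts 76, 39 and 48. Depth limits miR-21-3p, miR-222-5p and miR-31a-3p, at no more than 11 counts per library.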
